A study of Mus musculus with 20 samples.

Results

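The response of control mouse embryonic fibroblasts to amino acid starvation was measured by Ribo-seq, which sequences the messenger RNA fragments protected by ribosomes and so reports how ribosomes are distributed over coding regions. The starved cells comprised 2 libraries, labelled Starvation replicates 1 and 2, and the fed cells comprised 2 libraries, labelled Control replicates 1 and 2. These 4 of the 20 libraries of the series were chosen by their titles. Starved cells had spent 2 h in DMEM with a serum that the labels write only as DFBS, and fed cells were kept in DMEM with 10% fetal bovine serum, so the media can differ in serum as well as in amino acids. Both groups were fibroblasts of strain C57BL/6J without the 4-OHT or Thiamet-G that other cells of the series received. The series title places the study in the integrated stress response. The comparison asks how footprints differed between starved and fed cells with neither an Ogt knockout nor Thiamet-G. Whether the replicates of a condition were grown as separate cultures is not stated in the labels, so the spread between libraries may be a technical one. The main fit below compares within replicate number. Its p-values measure how far the replicate pairs disagree, with spread shared over transcripts, and not the spread of libraries within a condition. The second fed library is replicate 2 by its title, while its description calls it replicate 1, and the title was followed.

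When amino acids run short, uncharged transfer RNAs activate the kinase GCN2, which phosphorylates the initiation factor eIF2 and lowers initiation on most messages while favouring a few with upstream open reading frames, such as the one encoding the transcription factor ATF4. The same shortage lowers the activity of mTORC1, on which translation of messages with a 5′ terminal oligopyrimidine tract, among them those of ribosomal proteins, depends. Footprint values are relative to the library, so a fall on all messages together leaves no trace in them. Without a matched RNA measurement, a change in message abundance and a change in ribosomes per message cannot be told apart here, and neither can fewer cells of a type and less RNA per cell. The files hold Ensembl transcript identifiers without gene names, and 0 of 13746 identifiers matched the reference table, so neither of these message classes, nor markers of fibroblasts or other cells, was analysed here. Transcripts are described below by coding length, by footprint level and, for 4 of them, by identifier.

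Levels were deposited as RPKM, reads scaled to coding length and to the reads of the library. Whole reads were recovered from the steps between RPKM values, which gave 5846130 reads in starved replicate 1, 1505367 in starved replicate 2, 3350944 in fed replicate 1 and 3030545 in fed replicate 2. Of the 13746 transcripts in any file, 9601 were listed in all 4, and these carried 95.8% to 97.5% of each library's reads. Of these 9601, fewer than 5 reads were found for 2 in starved and 5 in fed replicate 1, and for 759 in starved and 391 in fed replicate 2, so the files of the replicates were listed to different depths. Libraries were compared within replicate number, and tests covered the 9513 of these transcripts whose mean reached 1 RPKM. Log2 ratios are of RPKM + 1 after rescaling of the libraries to a common median ratio, a scale that understates changes of low transcripts, and RPKM values below are rescaled in this way unless called deposited.

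Fewer footprints of starved cells lay on the most heavily read transcripts. The 50 most read transcripts of each library took 13.1% and 14.9% of reads in starved replicates 1 and 2, against 18.3% and 18.8% in fed replicates 1 and 2. It took 760 and 779 transcripts to reach 50% of the reads in starved libraries, against 519 and 579 in fed libraries. Starved and fed libraries did not overlap in either measure, although with 2 libraries a group an exact two-sided permutation test could not give a p below 0.333. For the 10 most read transcripts the groups did overlap, with 5.02% and 6.70% in starved libraries and 6.01% and 7.52% in fed libraries.

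**Figure D1:**
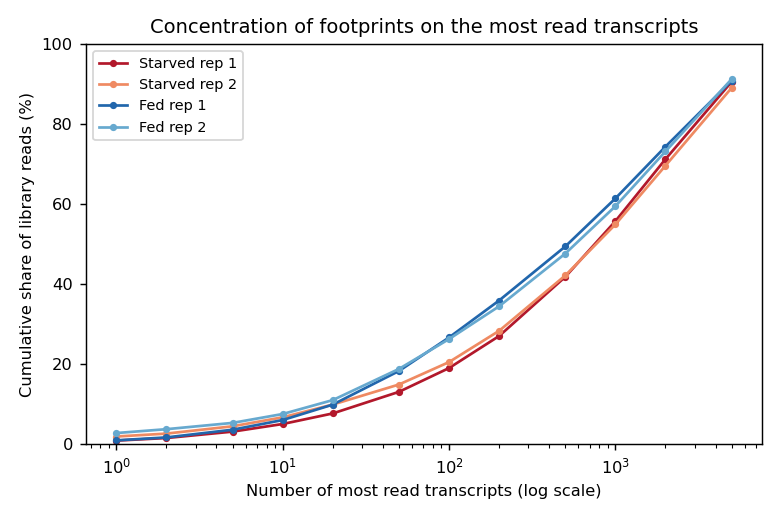
Cumulative share of library reads (y axis, %) held by the most read transcripts of each of the 4 libraries (x axis, number of transcripts, log scale). The 50 most read transcripts held 13.1% and 14.9% of reads in the starved libraries and 18.3% and 18.8% in the fed libraries.

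A fixed set of transcripts, chosen by level in the same 4 libraries, was also followed in every library. It rests on the same reads, and transcripts high in 1 condition alone can enter it, so it is not separate support. The 100 transcripts with the highest mean level over the 4 libraries, at least 2203 RPKM each, held 10.3% and 15.8% of starved reads, against 24.2% and 22.9% of fed reads. Of these 100, 72 had a lower level in starved cells in both replicate pairs and 2 had a higher level in both, where the background over all 9513 transcripts was 29.1% lower in both and 29.3% higher in both. The median log2 ratio of starved to fed among the 100 was -1.78 in replicate 1 and -0.72 in replicate 2. These highly read transcripts mostly had short coding regions, with 87 of 100 at 600 nt or less. The 13 longer ones were lower as well, with 10 of 13 below 0 in both pairs and median log2 ratios of -1.09 and -0.69.

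Short coding regions lost footprint share in starved cells. Coding regions of at most 600 nt, 1348 transcripts, took 20.8% and 26.5% of reads in starved replicates 1 and 2, against 42.1% and 33.7% in fed replicates 1 and 2. The difference within replicates was -21.3 percentage points in replicate 1 and -7.21 points in replicate 2, a mean of -14.3 ± 9.96 points (SD, n = 2 pairs). Both starved libraries were below both fed libraries, but the size of the fall differed about as much between pairs as its mean. Replicates of 1 condition also differed in this share, in opposite directions: replicate 1 had the lower share among starved and the higher share among fed libraries.

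The loss was spread over the short class. Coding regions of at most 300 nt took 4.33% and 4.47% of starved reads, against 8.74% and 6.28% of fed reads. Those of over 300 and up to 450 nt took 8.82% and 12.7% of starved reads, against 20.0% and 14.8% of fed reads, and those of over 450 and up to 600 nt took 7.66% and 9.30%, against 13.4% and 12.7%. Each of these 3 subclasses was lower in both starved libraries than in both fed ones. Coding regions of over 600 and up to 1200 nt held nearly the same share in both conditions, 30.0% and 32.6% in starved and 29.1% and 31.3% in fed libraries, and these groups overlapped. The share gained lay mainly on coding regions of over 1200 and up to 3000 nt, with 37.5% and 30.2% of starved reads, against 20.9% and 26.7% of fed reads. Coding regions over 3000 nt took 9.25% and 6.48% of starved reads, against 4.97% and 5.84% of fed reads.

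**Figure D2:**
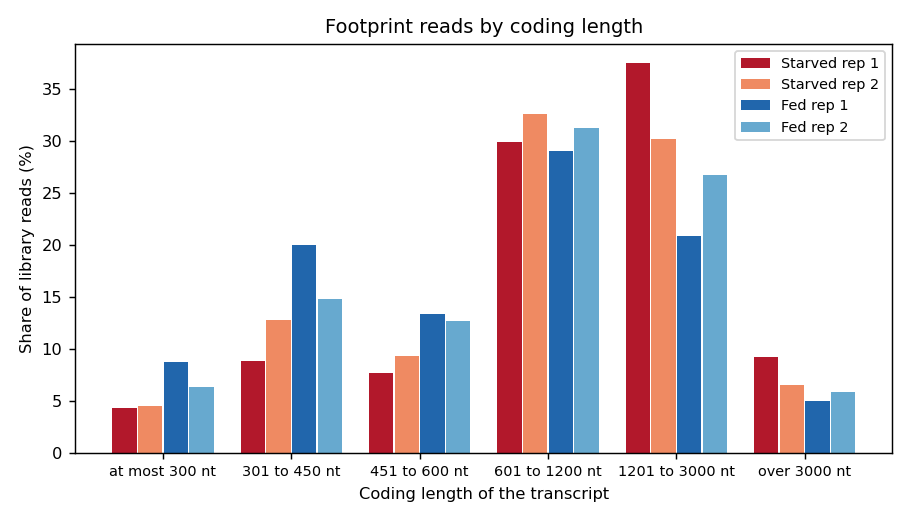
Share of library reads (y axis, %) on transcripts of each class of coding length (x axis), with 1 bar for each of the 4 libraries. Bars of the 3 classes up to 600 nt are lower in both starved libraries than in both fed libraries, and bars of the classes over 1200 nt are higher.

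Per transcript, the ratios increased with coding length over all classes in replicate 1, and in replicate 2 up to 3000 nt. The median log2 ratio of starved to fed for the 228 coding regions of at most 300 nt was -1.33 in replicate 1 and -0.33 in replicate 2, and for the 1120 of over 300 and up to 600 nt it was -1.14 and -0.30. The 2788 of over 600 and up to 1200 nt had medians of -0.33 and 0.00, the 4100 of over 1200 and up to 3000 nt had 0.42 and 0.08, and the 1277 over 3000 nt had 0.59 and -0.00. Over all 9513 transcripts the medians were 0.03 and -0.01. In replicate 2 the classes above 600 nt thus differed little, and the longest lay slightly below both middle classes. Of the 1348 transcripts of at most 600 nt, 745 (55.3%) were lower in starved cells in both pairs and 115 (8.53%) were higher in both. Of the 1277 over 3000 nt, 170 (13.3%) were lower in both pairs and 479 (37.5%) were higher in both. Over all tested transcripts, these shares were 29.1% and 29.3%. The class over 3000 nt was shifted up in replicate 1 alone, where the lower quartile of its log2 ratios was -0.02. Its excess of shared increases is therefore not an agreement of both pairs on a gain. Between replicates of 1 condition, the short class had a median log2 ratio of -0.50 for starved replicate 1 over starved replicate 2 and of 0.34 for fed replicate 1 over fed replicate 2. These shifts were as large as the one of starved over fed in replicate 2, and the part of library preparation in the length dependence was not tested.

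Because short coding regions were also the most heavily read, length and level were separated. Levels are means over the same 4 libraries, so a transcript can enter a level class through 1 condition alone. Among transcripts of at most 600 nt, the fall was present at every level from 10 RPKM upward. Their median log2 ratios were -1.16 and -0.31 at 10 to 100 RPKM (419 transcripts), -1.17 and -0.27 at 100 to 1000 RPKM (695), and -1.26 and -0.50 over 1000 RPKM (190), in replicates 1 and 2. The 44 short transcripts under 10 RPKM had medians of -0.63 and 0.21, so the pairs differed in sign there. Among coding regions of over 600 and up to 3000 nt, medians lay between 0.02 and 0.14 at all levels up to 1000 RPKM in both pairs. The 52 transcripts of this length over 1000 RPKM had medians of -0.47 and -0.51, with 30 of 52 (57.7%) lower in both pairs, against 29.1% of all tested transcripts, and 16 of 52 (30.8%) higher in both, against 29.3%. Limma called 3 of these 52 lower (5.77%) and 3 higher (5.77%), against 0.357% and 0.210% of all tested transcripts. Of the 242 transcripts of any length over 1000 RPKM, it called 4.13% lower and 1.24% higher. In both pairs, 65.7% of the 242 were lower and 10.7% higher. The class of over 600 and up to 3000 nt joins the opposite shifts of its parts. Of its 2788 coding regions up to 1200 nt, 988 (35.4%) were lower and 700 (25.1%) higher in both pairs. Of its 4100 longer ones, 864 (21.1%) were lower and 1493 (36.4%) higher. Reads on short transcripts over 1000 RPKM made up most of the lost share, with 12.4% and 15.8% of starved reads, against 28.2% and 22.0% of fed reads. The 52 longer transcripts at that level took 7.13% and 10.2% of starved reads and 7.59% and 11.3% of fed reads, which overlapped.

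**Figure D3:**
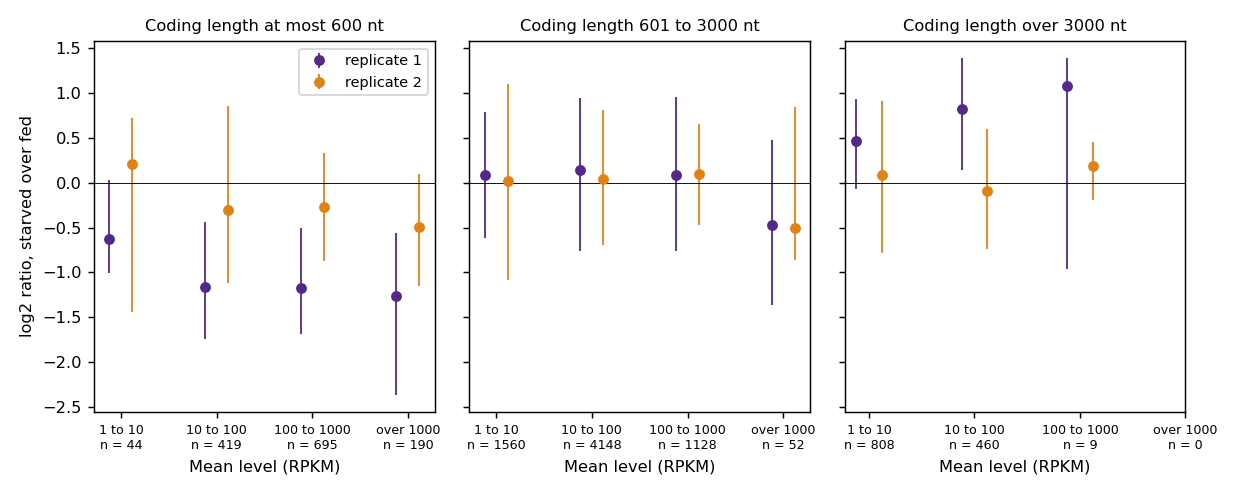
Median log2 ratio of starved over fed (y axis) in replicate 1 and replicate 2 by mean level (x axis, RPKM, with the number of transcripts), in 1 panel for each of 3 classes of coding length; bars span the middle 50% of transcripts. Medians of coding regions of at most 600 nt are below 0 in both pairs from 10 RPKM upward, and those of over 600 and up to 3000 nt are near 0 except over 1000 RPKM.

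Single transcripts varied widely between libraries of the same condition. A change of at least 2-fold separated starved replicate 1 from starved replicate 2 for 42.8% of the 9513 transcripts, and fed replicate 1 from fed replicate 2 for 33.4%. Between starved and fed cells it separated 42.5% of transcripts in replicate 1 and 39.1% in replicate 2. Across transcripts, the log2 ratios of the pairs, which share no library, had a Pearson correlation of 0.189 (n = 9513 transcripts that share the same 4 libraries), and 58.4% had the same sign in both. In replicates 1 and 2, 20.8% and 19.9% of transcripts were at least 2-fold higher in starved cells, and 21.7% and 19.2% at least 2-fold lower. Unrelated pairs with such shares would also overlap, so not every change shared by both pairs need be a reproducible one. In both pairs, 516 transcripts were at least 2-fold higher in starved cells (5.42% of those tested) and 560 were at least 2-fold lower (5.89%). On RPKM as deposited the balance turned, with 647 higher and 473 lower. Of the 1348 transcripts of at most 600 nt, 218 (16.2%) were in the lower set and 18 (1.34%) in the higher set. Of the 4100 transcripts of over 1200 and up to 3000 nt, 120 (2.93%) were in the lower set and 303 (7.39%) in the higher set.

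With replicate number as a block, limma called 54 of 9513 transcripts (0.568%) at an adjusted p under 0.05, 34 of them lower (0.357%) and 20 higher (0.210%) in starved cells. The split was 26 lower and 25 higher after quantile normalization, and 2 lower and 2 higher on RPKM as deposited. The 34 fell by 4.75-fold to 19.4-fold, with a median of 8.58-fold, and the 20 rose by 4.87-fold to 15.9-fold, with a median of 8.31-fold. All 54 moved in the same direction in both pairs. Starved and fed libraries did not overlap for 34 of the 34 and 19 of the 20. Of all tested transcripts, 20.2% were lower and 20.1% higher without overlap. The calls rest on the same libraries, so the shared direction and lack of overlap follow largely from selection and are not separate support. The fit had 1 residual degree of freedom per transcript and drew mostly on the spread shared by transcripts of like level. It called 0 transcripts without the replicate block, where 752 (7.9%) had an unadjusted p under 0.05. Without a trend of the variance with level, limma called 0, and 910 (9.6%) had an unadjusted p under 0.05. In the main fit 1101 (11.6%) did, and some transcripts pass this unadjusted cut without any effect.

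**Figure D4:**
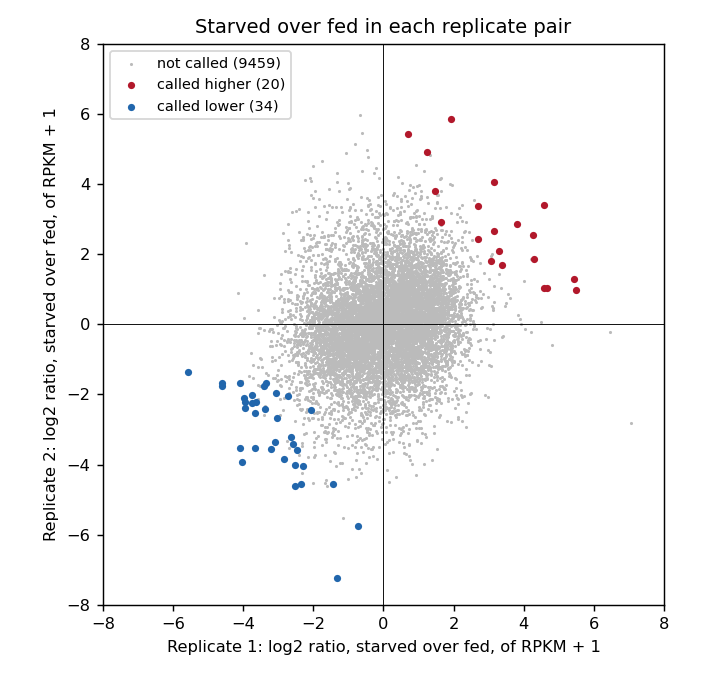
Log2 ratio of starved over fed RPKM + 1 for each of 9513 transcripts in replicate 1 (x axis) and replicate 2 (y axis), with the 20 transcripts called higher and the 34 called lower in colour. All 54 lie in the quadrants where both pairs have the same sign, which follows largely from their selection on the same libraries.

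The 34 transcripts that fell were short. Their coding regions had a median of 433.5 nt and ran from 78 to 1512 nt, and 29 of 34 (85.3%) were at most 600 nt, against 14.2% of all tested transcripts. Their median level was 307 RPKM, against 26.8 RPKM over all tested transcripts, and 10 of the 34 were over 1000 RPKM. In sum they held 0.172% and 0.322% of the reads of starved replicates 1 and 2, against 2.29% and 1.64% in fed replicates 1 and 2. In 15 of the 34, at least 1 library had fewer than 20 reads. Coding regions of the 20 transcripts that rose ran from 303 to 2328 nt around a median of 853.5 nt. All tested transcripts had a median of 1344 nt, so called transcripts of both directions were shorter than this. Of the 20, 4 (20%) were at most 600 nt, against 14.2% of all tested transcripts. The 20 had a median level of 255 RPKM, and they held 1.78% and 1.08% of starved reads, against 0.229% and 0.207% of fed reads. In 5 of the 20, at least 1 library had fewer than 20 reads. Limma called 0 of the 1277 transcripts over 3000 nt, where 0.568% of all tested transcripts were called. Of these 1277, 808 were at 1 to 10 RPKM, a level at which 0 of 2412 transcripts of any length were called.

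Ranked by the smaller of the pair ratios, the first decreases were ENSMUST00000073238 and ENSMUST00000008812, although the largest fitted decrease among the 34 was 19.4-fold on another transcript. ENSMUST00000073238, with a coding length of 78 nt, had 1316 and 562 RPKM in starved replicates 1 and 2, against 21816 and 8618 RPKM in fed replicates 1 and 2. All starved values were below all fed values, and the ratio was nearly equal in both pairs, with log2 ratios of -4.05 and -3.94. These rest on 631 and 68 reads in starved libraries, against 5363 and 1999 in fed libraries. The transcript averaged 939 ± 534 RPKM in starved and 15217 ± 9332 RPKM in fed cells (SD, n = 2 each). Its fitted log2 change was -3.99 with an SE of 0.744 (adjusted p = 0.00667 by limma). Without the block and 1 library it was -4.61 without starved replicate 1, -3.38 without starved replicate 2, -3.32 without fed replicate 1 and -4.66 without fed replicate 2, and it was called in the last of these alone. Replicates of 1 condition differed by more than 2-fold, with replicate 1 higher in both conditions.

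ENSMUST00000008812, with a coding length of 459 nt, differed less between replicates. It had 132 and 170 RPKM in starved replicates 1 and 2, against 2272 and 1971 RPKM in fed replicates 1 and 2. The groups were far apart, with 151 ± 27.1 RPKM in starved and 2122 ± 213 RPKM in fed cells (SD, n = 2 each). Reads numbered 371 and 121 in starved libraries, against 3287 and 2691 in fed libraries. Its fitted log2 change was -3.81 with an SE of 0.584 (adjusted p = 0.00068 by limma).

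In the same ranking, the first increases were ENSMUST00000027748 and ENSMUST00000026475. ENSMUST00000026475, with a coding length of 507 nt, had 279 and 139 RPKM in starved replicates 1 and 2, against 30.7 and 7.30 RPKM in fed replicates 1 and 2. Starved and fed values did not overlap, and the log2 ratios were 3.14 and 4.07. Its fitted log2 change was 3.61 with an SE of 0.645 (adjusted p = 0.00509 by limma), from reads of 869 and 109 in starved libraries and 49 and 11 in fed libraries. Without the block and 1 library it was 3.11 without starved replicate 1, 4.11 without starved replicate 2, 4.57 without fed replicate 1 and 2.64 without fed replicate 2, and it was called without fed replicate 1 alone.

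ENSMUST00000027748, with a coding length of 303 nt, had 248 and 21.3 RPKM in starved replicates 1 and 2, against 9.42 and 1.11 RPKM in fed replicates 1 and 2. It met the floor of a mean of 10 RPKM only through the starved libraries, with means of 134 RPKM in starved and 5.27 RPKM in fed cells. The lower starved value was above the higher fed value, but the starved libraries differed more than 10-fold from each other. The fitted log2 change was 3.99 with an SE of 0.819 (adjusted p = 0.0105 by limma). It was not called by limma-voom on recovered reads, with a log2 change of 4.34 (adjusted p = 0.0547). Without the block and 1 library the change was 2.25 without starved replicate 1 (limma adjusted p = 0.523) and 2.84 without fed replicate 2 (limma adjusted p = 0.673), neither called. It was 5.73 without starved replicate 2 and 5.14 without fed replicate 1, both called. In replicate 2 the change rests on 10 reads in starved and 1 read in fed cells, a ratio of 19.2 with a 95% counting interval of 2.73 to 832 (exact binomial). In replicate 1 it rests on 461 reads in starved and 9 reads in fed cells, a ratio of 26.3 with an interval of 13.7 to 57.8. Both intervals cover counting error only.

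**Figure D5:**
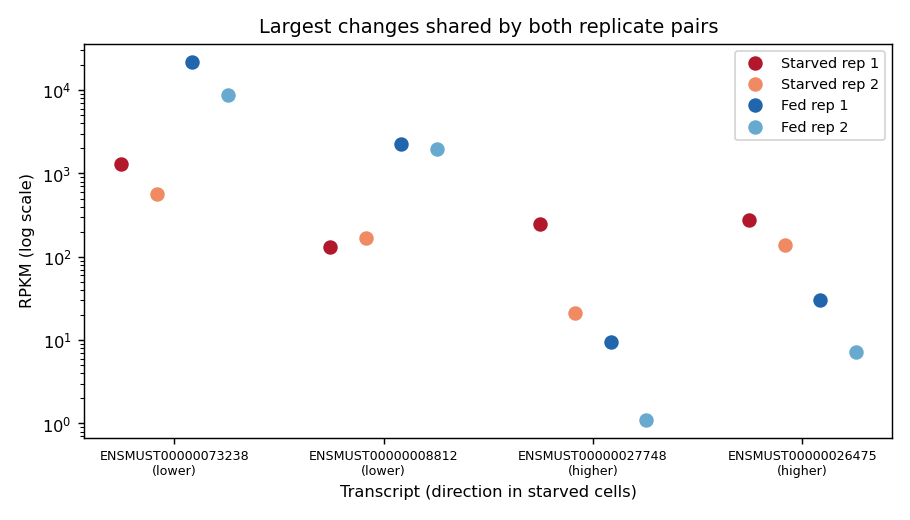
RPKM (y axis, log scale) of the 4 named transcripts (x axis) in each of the 4 libraries, 1 point a library. Starved points lie below fed points for ENSMUST00000073238 and ENSMUST00000008812 and above them for ENSMUST00000027748 and ENSMUST00000026475.

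The 12 transcripts per direction with the largest changes shared by both pairs, among those with a mean of at least 10 RPKM, also differed in length between directions. Among the 12 decreases 6 coding regions were at most 600 nt (median 669 nt), and among the 12 increases 2 were (median 1024.5 nt). Of all tested transcripts, 14.2% were at most 600 nt, a share near that of the increases. The median of all tested transcripts was 1344 nt, above the medians of both directions. The smaller of the ratios was at least 2.58 on the log2 scale below 0 for the 12 decreases and at least 2.34 above 0 for the 12 increases. Limma called 8 of the 12 decreases and 7 of the 12 increases, where 0.357% of all tested transcripts were called lower and 0.210% higher. The ranking used the same 4 libraries as the fit, so many calls among these transcripts follow from their selection. The other adjusted p-values of limma ran up to 0.124 among decreases and 0.217 among increases. Their levels spanned a wide range in both directions, with means of 12.1 to 8078 RPKM for decreases and 11.7 to 1864 RPKM for increases. In both directions, some met the floor of 10 RPKM only through the condition where they were higher.

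Some transcripts were listed in 1 condition alone and could not enter the fit. In both pairs, 94 transcripts were listed in starved and not in fed libraries, and 53 in fed and not in starved libraries. Their deposited levels were low, with medians of 1.10 and 0.857 RPKM in starved replicates 1 and 2 for the 94, and of 2.30 and 1.41 RPKM in fed replicates 1 and 2 for the 53. None of the 94 and 1 of the 53 exceeded 10 deposited RPKM in both libraries that listed it. The starved library was the deeper one in replicate 1 and the shallower one in replicate 2, and the part of depth in these counts was not tested.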

How the data were processed

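Ribosome footprints were measured in 4 Ribo-seq libraries of control cells, from fragments of 25 to 35 nt per the labels' protocols; 16 libraries of the series were left out. The authors deposited RPKM values, 1 file per library. Per the submitters' processing notes, the tools were STAR and cutadapt and the build was GRCm38. For the read counter, annotation, transcript choice and filters, the sources used here give nothing.

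Reads, totals and coding lengths were recovered as the shortest length, in multiples of 3, that made reads whole in all 4 libraries within a tolerance of 1e-06. Where all reads of a transcript share a factor, reads and length are too small. Lengths of any kind, tried on 1921 transcripts, were multiples of 3 in 99.4%. The procedure and the fit were also run on simulated data. The simulated spread was not matched to these libraries and held no effect of replicate number, so nothing is concluded from it about the calls. No libraries were duplicates, with mean chi-square per transcript of 50.6 to 199. It was 99.6 between the starved and 76.5 between the fed replicates, against 180 and 50.6 between starved and fed libraries of replicates 1 and 2. Starved replicate 2 was thus nearer to fed replicate 2 than to starved replicate 1 in this measure, which also depends on depth. The Pearson correlation of log2 levels was 0.826 between the starved and 0.886 between the fed replicates. Between starved and fed libraries it was 0.860 in replicate 1 and 0.853 in replicate 2, so the starved replicates were less alike than either pair.

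Libraries were rescaled by their median ratio to the transcripts' geometric means. The test was limma's, version 3.58.1 under R 4.3.3 (lmFit, eBayes with a trend, two-sided), on log2(RPKM + 1) with replicate number as a block, Benjamini-Hochberg adjusted over 9513 transcripts. The numbers come from the titles, and the block was used because libraries were compared within replicate number. Deviations of same-numbered libraries from their group means correlated at 0.187 across transcripts, and separate cultures are not stated. Named transcripts were the first 2 of 12 per direction, ranked by the smaller of the pair ratios, among those with a mean of at least 10 RPKM. Members, length classes and tests were chosen with earlier results of these data known. Gene lists by symbol were not used, since no identifier matched, and for want of names the other transcripts of the rule are given only by counts and ranges. Alternatives are given in the closing section.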

Additional observations from a re-analysis of the deposited data

How the results depend on the processing

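The number of called transcripts depended on the fit. Against 54 (20 higher, 34 lower), limma called 0 without the replicate block, 0 without a variance trend and 4 on RPKM as deposited (2 higher and 2 lower). That last scaling left the median log2 ratio at 0.114, against 0.009. Limma called 101 with unlisted transcripts taken as 0, 112 with a mean of at least 10 RPKM and 107 with a pseudocount of 5, each including all 54, and limma-voom on recovered reads called 94, of which 39 were shared. Quantile normalization gave 25 higher and 26 lower. Leaving out 1 library, without the block, gave 0 to 33 calls: 0 without starved replicate 1 (932 at an unadjusted p under 0.05), 33 without starved replicate 2, 16 without fed replicate 1 and 15 without fed replicate 2. The 4 named transcripts kept their direction under all alternatives run, and each lost its call in 3 to 6 of 14 or 15, all of them without the block, without a trend and without starved replicate 1. The 516 and 560 transcripts changed at least 2-fold in both pairs were 647 and 473 on RPKM as deposited, and became 1889 to 1976 higher and 1831 to 2065 lower in single pairs. The difference in share on short coding regions was -21.3 to -7.21 points in single pairs and -9.72 points for at most 450 nt. On coding regions over 3000 nt it was 0.635 to 4.28 points, and 0.862 points over 4500 nt. The median log2 ratio over 3000 nt averaged 0.29 over pairs and was -0.0028 to 0.59 in single pairs. Medians of gene lists were not run. A floor of 5 reads in all libraries, which was chosen after seeing the data, gave 41 calls. Depth limits most the starved replicate 2 library, with a median of 59 reads per transcript.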
